A study of Mus musculus with 12 samples.

Results

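The integrated stress response and the unfolded protein response were followed through 32 listed genes in 12 whole mouse embryos at E10.5. Of these genes, 20 formed the Atf4 arm (Atf4, its targets and the enzymes of serine and one-carbon metabolism). The ER arm held 12 (Xbp1, the sensor Atf6, and chaperones and degradation factors of the endoplasmic reticulum). All 32 were on the array, and 73 probe sets carried 1 of their symbols alone, of which the brightest on average stood for its gene (23 genes had several). The filter on low values left 30 of the 32 to be tested (18 and 12), out of 13500 tested of 18193 genes measured in the series. Slc7a11 and Nupr1 were not tested.

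The 4 genotypes had 3 embryos each. Double mutants were homozygous for the acd allele and also p53-/- (Acdacd/acd, p53-/-), acd embryos were homozygous for the allele alone (Acdacd/acd), p53-/- embryos lacked p53 alone, and wt embryos carried neither. Acd encodes TPP1, a shelterin protein that protects chromosome ends, and p53 is a transcription factor that stops or removes cells whose DNA is damaged. The series asks which part of the response to the acd allele needs p53. All were measured as whole embryos, so fewer cells of a type and less RNA per cell cannot be told apart. Genotypes are given as labelled. The labels call the replicates biological and name neither litter nor strain.

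In the integrated stress response, kinases that sense viral RNA, amino acid shortage, haem shortage or misfolded proteins phosphorylate the initiation factor eIF2. Most translation then slows, while the mRNA of Atf4 is translated more, and Atf4 protein turns on genes of amino acid synthesis and uptake together with Ddit3, Trib3 and Ppp1r15a. In the unfolded protein response, the kinase Perk feeds into the same eIF2 step, Ire1 splices Xbp1 mRNA, and Atf6 is cut to release a transcription factor, and the last 2 branches raise chaperones and degradation factors of the ER. The arrays measure mRNA level alone, so neither eIF2 phosphorylation, Atf4 protein nor the splice form of Xbp1 was seen.

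Several facts of the series bear on every value below. Values are log2 RMA expression values, with array medians between 5.32 and 5.40, and differences are log2 differences from a limma fit with its standard error. The Acd transcript itself was at 8.44, 8.42 and 8.24 in double mutants, 8.27, 8.31 and 8.22 in acd embryos, 8.84, 8.85 and 9.05 in p53-/- embryos and 9.0, 8.99 and 8.99 in wt embryos, so it was lower in all 6 homozygous arrays. The array labelled acd replicate 1 went against its label on p53 targets. Ccng1, a cyclin that p53 induces, was at 8.44, 8.51 and 8.33 in double mutants, 8.34, 10.16 and 10.34 in acd embryos, 8.32, 8.54 and 8.39 in p53-/- embryos and 9.22, 9.26 and 8.75 in wt embryos. In that array all 10 p53 targets tested lay within the range of the 6 arrays labelled p53-/- (double mutants included) and below both other acd arrays, and 8 lay below all wt arrays, while its Acd transcript was as low as in the other acd embryos. Its p53 genotype was not tested, so results for the arms, for groups apart and for the 6 against 6 comparison are also given without it. The differences of single genes include it. Replicates 1 and 2 of the double mutants stood apart: the median correlation of each with the other 11 arrays was 0.972 and 0.987, where the remaining 10 arrays had at least 0.995. The median SD of the 30 tested members was 0.22 in double mutants, 0.07 in acd embryos, 0.09 in p53-/- embryos and 0.06 in wt embryos. The fit shares 1 estimate of spread per gene over the genotypes. Standard errors and p in comparisons without double mutants therefore also carry the spread of the double mutants. With the acd and wt arrays fitted alone, 1359 of 13500 genes had an unadjusted p under 0.05, against 239 with all arrays. In each of these fits 2 genes passed. Y-linked transcripts were present in 1 of 3 double mutants, 3 of 3 acd, 3 of 3 p53-/- and 1 of 3 wt embryos, so sex differed between the genotypes. Markers of heart muscle (7 of 7 listed), neurons (8 of 8), somites (6 of 6) and primitive red cells (5 of 7) passed the filter.

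Promoter windows show which members carry the elements that these factors are known to bind. RefSeq windows (GRCm38.p6, 250 bases before to 50 after a start, 300 bases in all) were available for 29 members, 18 of the Atf4 arm with 20 windows and 11 of the ER arm with 11. Both strands were searched. The pair CCAAT and CCACG separated by 9 bases, known as the ER stress response element, was in the windows of 5 of 11 ER arm genes (Hspa5, Hsp90b1, Dnajc3, Pdia6 and Calr), 0 of 18 Atf4 arm genes and 0.119% of all 32851 windows. CCACG alone was in 10 of 11 ER arm genes, 13 of 18 Atf4 arm genes and 32.8% of windows. The composite element TTGCATCA was in 4 of 18 Atf4 arm genes (Chac1, Nupr1, Slc7a11 and Vldlr), in 1 of 11 ER arm genes (Herpud1) and in 0.895% of windows. The looser TGATGNAA, which takes in the reverse strand of TTGCATCA, added Asns and Trib3 and was in 3.97% of windows. TGACGTGG, bound by Xbp1 and Atf6, was in 0 of the members' windows and in 0.676% of all. A match is only a run of letters. The windows below are those of members described in the results, 3 of the ER arm and 2 of the Atf4 arm, with the matches in capitals (in Hsp90b1, 2 copies of the pair).
Hspa5 (chr2:34771840-34772139, plus strand): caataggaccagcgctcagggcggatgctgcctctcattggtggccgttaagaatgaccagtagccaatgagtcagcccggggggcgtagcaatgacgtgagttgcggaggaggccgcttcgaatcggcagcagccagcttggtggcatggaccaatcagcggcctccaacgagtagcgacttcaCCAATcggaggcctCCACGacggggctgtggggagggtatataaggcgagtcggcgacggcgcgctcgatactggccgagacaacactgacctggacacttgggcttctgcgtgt
Hsp90b1 (chr10:86705395-86705694, minus strand): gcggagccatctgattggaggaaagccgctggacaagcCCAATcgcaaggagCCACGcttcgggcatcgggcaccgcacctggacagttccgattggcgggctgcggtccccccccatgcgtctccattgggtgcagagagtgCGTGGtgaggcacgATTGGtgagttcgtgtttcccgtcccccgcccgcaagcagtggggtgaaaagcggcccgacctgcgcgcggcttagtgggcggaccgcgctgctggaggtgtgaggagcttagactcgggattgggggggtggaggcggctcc
Dnajc3 (chr14:118937682-118937981, plus strand): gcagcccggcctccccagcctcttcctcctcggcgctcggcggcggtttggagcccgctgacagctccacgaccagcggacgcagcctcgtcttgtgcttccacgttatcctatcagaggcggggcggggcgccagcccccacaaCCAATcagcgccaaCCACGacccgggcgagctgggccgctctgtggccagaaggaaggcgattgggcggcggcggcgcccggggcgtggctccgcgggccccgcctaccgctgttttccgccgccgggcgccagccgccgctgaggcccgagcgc
Asns (chr6:7693160-7693459, minus strand): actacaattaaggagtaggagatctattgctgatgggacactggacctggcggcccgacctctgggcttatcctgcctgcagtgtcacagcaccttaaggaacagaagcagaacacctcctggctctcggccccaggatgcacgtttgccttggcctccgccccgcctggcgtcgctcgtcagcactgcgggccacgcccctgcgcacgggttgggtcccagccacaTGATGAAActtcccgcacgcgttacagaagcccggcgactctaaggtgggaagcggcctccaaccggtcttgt
Vldlr (chr19:27216770-27217069, plus strand): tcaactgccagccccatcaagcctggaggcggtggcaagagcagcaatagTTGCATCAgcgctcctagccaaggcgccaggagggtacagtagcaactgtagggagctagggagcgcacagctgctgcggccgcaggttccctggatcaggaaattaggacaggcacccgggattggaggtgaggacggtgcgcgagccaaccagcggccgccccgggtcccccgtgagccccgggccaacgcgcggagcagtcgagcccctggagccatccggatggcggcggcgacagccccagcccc

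Across the genotypes, Atf4 mRNA was nearly level on its brightest probe set. BiP and several other ER chaperones had slightly higher means in embryos homozygous for acd than in embryos labelled with the same p53 state. The largest departures from the wt mean, those of Sdf2l1, Dnajb9, Ddit3, Xbp1 and Ddit4, came from double mutant replicate 1. That embryo and replicate 2 had the lowest levels of the serine and folate enzymes Psat1, Shmt2 and Mthfd2, and replicate 3 did not.

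No member of either arm passed an adjusted p of 0.05 in any comparison (limma, Benjamini-Hochberg over 13500 genes). The background was as sparse, since 0.0148% of genes passed in acd embryos against wt, 0.0% in p53-/- embryos against wt, 0.00741% in double mutants against p53-/- embryos, 0.0% in double mutants against acd embryos, 0.0148% in double mutants against wt and 0.0% in the interaction. At an unadjusted p under 0.05, the members counted 2 of 30 in acd embryos against wt (1.77% of all genes), 0 in p53-/- against wt (0.719%), 7 in double mutants against p53-/- (10.7%), 8 in double mutants against acd (12.6%), 10 in double mutants against wt (11.1%) and 2 in the interaction (3.93%). The interaction subtracts the difference of acd from wt embryos from that of double mutants from p53-/- embryos. Comparisons that involve double mutants share their 3 arrays, and those against wt share the 3 wt arrays.

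These counts turned on 1 array. Without double mutant replicate 3, which lay closest to the other genotypes, 7 members passed in double mutants against p53-/- embryos (13.0% of all genes passed), 7 against acd embryos (13.9%), 5 against wt (12.2%) and 1, Ddit4, in the interaction (3.25%). Against p53-/- embryos Calr, Cebpb, Ddit4, Dnajb9 and Ppp1r15a rose and Psat1 and Shmt2 fell. Against acd embryos Ddit3, Ddit4 and Dnajb9 rose and Asns, Mthfd2, Psat1 and Shmt2 fell, and against wt Calr, Ddit4, Dnajb9 and Pdia4 rose and Shmt2 fell. The 2 double mutant arrays left in that fit are those that stood apart, and 6 interferon-induced genes averaged 2.74 and 2.45 above the wt mean in them, against 0.24 in replicate 3. Their part in these calls was not tested. With array quality weights, which the fit estimates from the spread, 0, 6, 8 and 0 members passed in the same 4 comparisons, against 0.904%, 13.2%, 13.4% and 0.0% of all genes. In acd embryos against wt no member passed under either setting (0.0222% of genes with weights). With sex as a term no member passed any comparison. Per-array values are therefore given before any difference, in the order of replicates 1, 2 and 3.

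**Figure D1:**
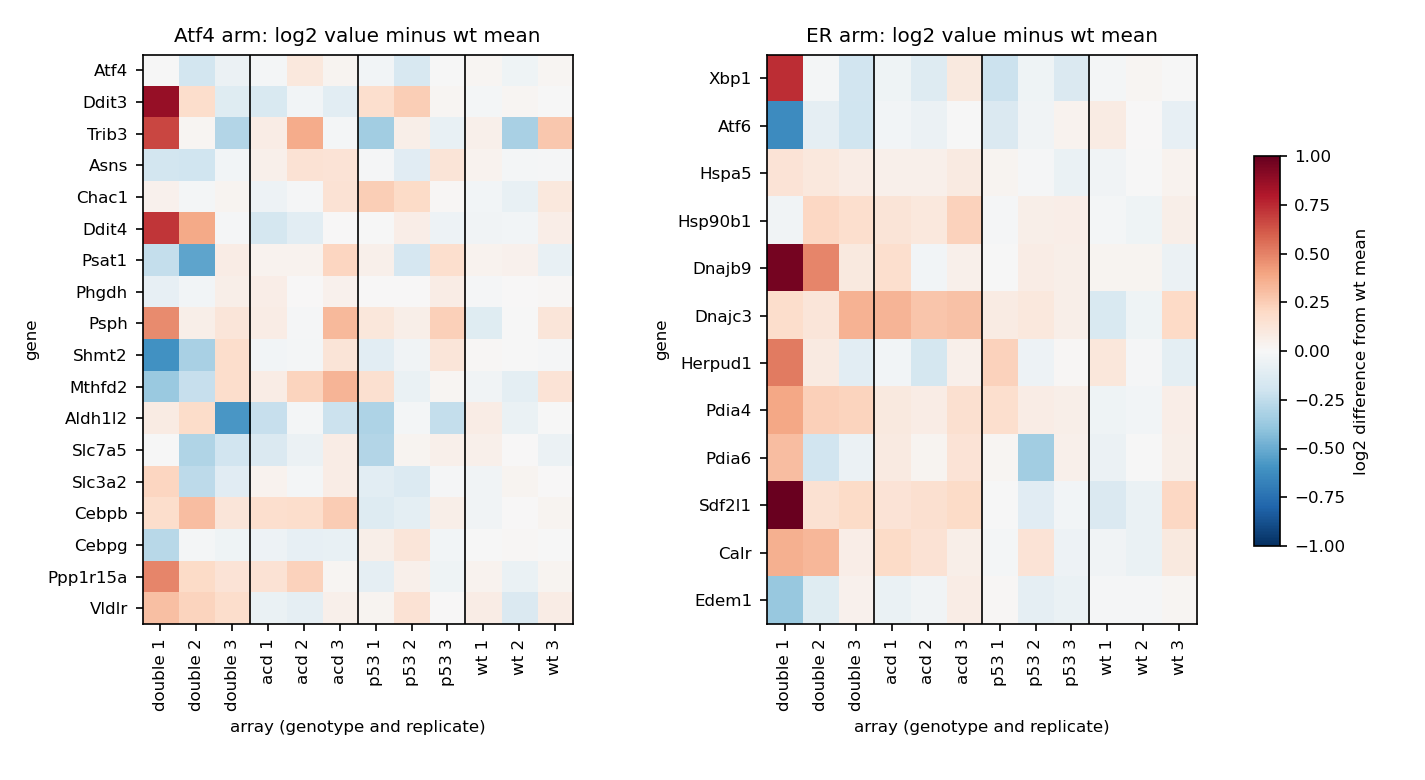
Log2 value minus the wt mean (colour, log2 units) for the 30 tested members (rows) on each of the 12 arrays (columns, grouped by genotype). The strongest colours lie in double mutant replicate 1, in both directions, and replicate 3 is closer to the arrays of the other genotypes, apart from Aldh1l2.

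Among the transcription factors of the Atf4 arm, Atf4 mRNA was nearly level on its brightest probe set. It was at 11.40, 11.22 and 11.35 in double mutants, 11.38, 11.51 and 11.43 in acd embryos, 11.38, 11.24 and 11.40 in p53-/- embryos and 11.42, 11.36 and 11.43 in wt embryos, and all 4 genotypes overlapped. Its difference was -0.02 ± 0.08 in double mutants against p53-/- embryos and 0.04 ± 0.08 in acd embryos against wt. Ddit3, the transcription factor CHOP that Atf4 induces under lasting stress, was at 8.0, 7.31 and 7.01 in double mutants, 6.98, 7.10 and 7.02 in acd embryos, 7.30, 7.38 and 7.15 in p53-/- embryos and 7.11, 7.15 and 7.13 in wt embryos. Double mutant replicate 1 lay above every other array, while replicate 3 was below the 3 wt arrays. Its second probe set had differences from the wt mean of 0.40, -0.36 and -0.08 in the 3 double mutants, so it too was high in replicate 1. Ddit3 in acd embryos was below all wt embryos, with a difference of -0.10 ± 0.19 (adjusted p near 1). That standard error carries the SD of 0.51 in double mutants, against 0.06 in acd and 0.02 in wt embryos. Trib3, a pseudokinase induced by Atf4 and CHOP that dampens Atf4, was at 6.70, 6.05 and 5.74 in double mutants, 6.11, 6.40 and 6.01 in acd embryos, 5.69, 6.09 and 5.96 in p53-/- embryos and 6.09, 5.71 and 6.30 in wt embryos. The wt arrays alone ran from 5.71 to 6.30, and only double mutant replicate 1 lay above the range of the other genotypes. A second Trib3 probe set, dimmer with a mean of 5.31, differed in this. On it all acd embryos lay above all wt embryos, with a difference of 0.36. Double mutant replicate 1, at 5.60, was below acd replicate 2, at 5.89.

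Cebpb, a leucine zipper factor that pairs with Atf4, was the member with the smallest p in double mutants against p53-/- embryos. It was at 7.37, 7.50 and 7.32 in double mutants, 7.36, 7.37 and 7.45 in acd embryos, 7.07, 7.10 and 7.26 in p53-/- embryos and 7.16, 7.20 and 7.23 in wt embryos. The 6 arrays homozygous for acd ran from 7.32 to 7.50, all above the 6 others at 7.07 to 7.26. The differences were 0.25 ± 0.08 in double mutants against p53-/- embryos (adjusted p = 0.463) and 0.20 ± 0.08 in acd embryos against wt (adjusted p near 1). A dimmer second probe set, with a mean of 5.06, had differences of 0.49 in double mutants against p53-/- embryos, without overlap, and 0.15 in acd embryos against wt, with overlap. Cebpg, another partner of Atf4, was at 8.88, 9.14 and 9.12 in double mutants, 9.11, 9.07 and 9.09 in acd embryos, 9.22, 9.28 and 9.13 in p53-/- embryos and 9.15, 9.17 and 9.15 in wt embryos. All acd and all double mutant arrays lay below all wt arrays, with differences of -0.07 ± 0.08 and -0.11 ± 0.08, although on the second probe set these were -0.10 and 0.03.

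Ppp1r15a and Ddit4 act as brakes in this response. Ppp1r15a (GADD34), which brings a phosphatase to eIF2 and so restores translation, was at 8.01, 7.72 and 7.66 in double mutants, 7.67, 7.75 and 7.54 in acd embryos, 7.44, 7.58 and 7.48 in p53-/- embryos and 7.56, 7.46 and 7.55 in wt embryos. All double mutants lay above all p53-/- embryos, by 0.30 ± 0.10 (adjusted p = 0.463), or by 0.19 without double mutant replicate 1. Ddit4 (REDD1), an inhibitor of mTORC1 that is known to answer to Atf4, hypoxia and p53, was at 10.35, 10.01 and 9.62 in double mutants, 9.45, 9.53 and 9.64 in acd embryos, 9.63, 9.70 and 9.58 in p53-/- embryos and 9.59, 9.61 and 9.70 in wt embryos. Double mutant replicates 1 and 2 exceeded every other array and replicate 3 lay among them. The difference from p53-/- embryos was 0.36 ± 0.14 with all arrays, 0.18 without replicate 1 and -0.01 without replicates 1 and 2. Ddit4 had the smallest p of the members in the interaction, 0.45 ± 0.20 (adjusted p = 0.879), and was the member that passed there without replicate 3, at 0.64 ± 0.14 (adjusted p = 0.0351).

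In double mutant replicate 1, where Ddit3 was highest, the amino acid synthesis enzymes Asns, Psat1 and Phgdh were below every array of the other genotypes. Psph, another such enzyme, was above them. Of all genes, 33.6% were below and 36.4% above in that array. For Phgdh this held on its brightest probe set. On its probe sets with means of 10.57 and 10.07, replicate 1 lay within the range of the other genotypes. Asns, which makes asparagine and is a classic Atf4 target, was at 9.65, 9.64 and 9.81 in double mutants, 9.89, 9.98 and 9.98 in acd embryos, 9.83, 9.72 and 9.96 in p53-/- embryos and 9.87, 9.81 and 9.82 in wt embryos. All double mutants lay below all acd and all wt embryos, and all acd embryos lay above all wt embryos. Its differences were -0.25 ± 0.08 in double mutants against acd (adjusted p = 0.371), 0.11 ± 0.08 in acd against wt (adjusted p near 1) and -0.25 ± 0.11 in the interaction (adjusted p = 0.879). A second probe set, of similar brightness, gave -0.30 in double mutants against acd and 0.06 in acd against wt. Both comparisons overlapped on it, since acd replicate 1 lay below all wt arrays and below double mutant replicate 3. Asns and Vldlr, whose printed windows both hold a composite element, thus lay on opposite sides in double mutants against acd embryos, with Vldlr at 0.27 ± 0.08.

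Of the serine synthesis enzymes, Psat1 was at 10.65, 10.37 and 10.96 in double mutants, 10.92, 10.92 and 11.10 in acd embryos, 10.94, 10.72 and 11.06 in p53-/- embryos and 10.92, 10.93 and 10.81 in wt embryos. Double mutant replicates 1 and 2 were the lowest of the 12 arrays and replicate 3 was not. Phgdh, the first enzyme of the pathway, spanned 11.79 to 11.95 over the 12 arrays. Psph, the last enzyme, was at 9.02, 8.60 and 8.67 in double mutants, 8.62, 8.53 and 8.87 in acd embryos, 8.66, 8.60 and 8.79 in p53-/- embryos and 8.43, 8.54 and 8.67 in wt embryos. Double mutant replicate 1 was the highest array, and the other double mutants lay within the range of the remaining genotypes. The mitochondrial folate enzymes split in the same way by embryo as Psat1. Mthfd2 was at 9.52, 9.66 and 10.07 in double mutants, 9.97, 10.12 and 10.24 in acd embryos, 10.05, 9.83 and 9.92 in p53-/- embryos and 9.86, 9.80 and 10.03 in wt embryos. Shmt2, which passes serine's carbon to folate, was at 8.69, 8.97 and 9.47 in double mutants, 9.27, 9.28 and 9.42 in acd embryos, 9.20, 9.26 and 9.42 in p53-/- embryos and 9.31, 9.29 and 9.29 in wt embryos. Replicates 1 and 2 were again the lowest arrays for each gene, while replicate 3 was above the wt mean. Both genes' further probe sets also had lower means in double mutants than in acd embryos, with differences of -0.32 to -0.13 for Shmt2. Without replicate 3, Asns, Psat1, Shmt2 and Mthfd2 passed against acd embryos, at -0.31 ± 0.08, -0.48 ± 0.12, -0.50 ± 0.10 and -0.51 ± 0.11. Aldh1l2, a mitochondrial enzyme that oxidises formyl-folate, lay around the array medians, between 5.01 and 5.78, where background can compress differences, so no size of a difference is given.

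Among the transporters and remaining targets, Slc7a5 and Slc3a2 form the exchanger for large neutral amino acids. Slc7a5 ran from 8.87 to 9.24 and Slc3a2 from 9.71 to 10.18 over the 12 arrays. Their ranges overlapped in every comparison, and Slc3a2 was both highest (replicate 1) and lowest (replicate 2) in double mutants. Slc7a11, the cystine importer, and Nupr1, a stress-induced nuclear protein, stayed at 3.94 to 4.45 and 4.17 to 4.84, low on the array scale, and Chac1, which breaks down glutathione, at 4.79 to 5.11. For these 3 genes no size of a difference is given. Vldlr, a lipoprotein receptor known as an Atf4 target, was at 8.47, 8.40 and 8.35 in double mutants, 8.11, 8.08 and 8.22 in acd embryos, 8.20, 8.32 and 8.17 in p53-/- embryos and 8.25, 8.03 and 8.24 in wt embryos. All 3 double mutants exceeded every array of the other genotypes, by 0.27 ± 0.08 over acd embryos (adjusted p = 0.371). Of its 5 further probe sets, 4 were also higher in double mutants than in acd embryos, by 0.04 to 0.28, and 1 had a difference of -0.16.

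**Figure D2:**
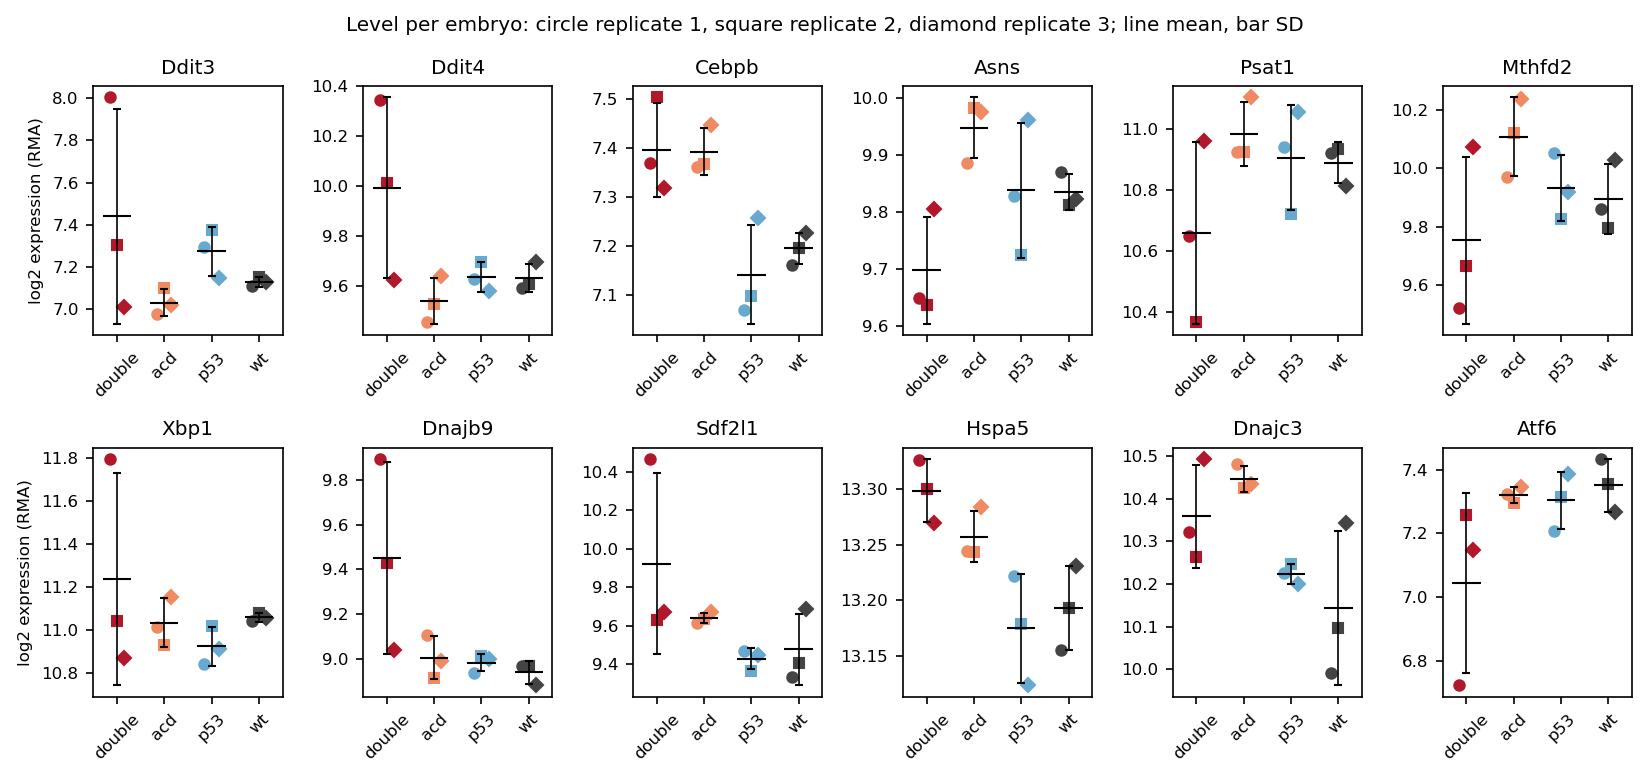
Log2 RMA expression of 12 members in each embryo (points, shape by replicate) by genotype, with the mean (line) and SD (bar, n = 3); each panel has its own axis, which does not start at 0. Ddit3, Ddit4, Dnajb9, Sdf2l1 and Xbp1 peak in double mutant replicate 1 (circle), Asns, Psat1 and Mthfd2 are lowest in replicates 1 and 2, and Cebpb separates the double mutant and acd embryos from the others.

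In the ER arm, Xbp1 and the sensor Atf6 were read first. Xbp1, the transcription factor made active by Ire1, was at 11.79, 11.04 and 10.87 in double mutants, 11.01, 10.93 and 11.15 in acd embryos, 10.84, 11.02 and 10.91 in p53-/- embryos and 11.04, 11.08 and 11.05 in wt embryos. Double mutant replicate 1 was above every other array and replicate 3 below the 3 wt arrays. All 4 Xbp1 probe sets showed this excess in replicate 1, by 0.54 to 0.83 over the wt mean. All p53-/- embryos lay below all wt embryos, with a difference of -0.13 ± 0.18 (adjusted p near 1), and this was the only member whose groups were apart in that comparison (3.35% of all genes were apart and lower, and 3.42% apart and higher). Atf6, the cleaved sensor, was at 6.73, 7.26 and 7.15 in double mutants, 7.32, 7.30 and 7.35 in acd embryos, 7.21, 7.31 and 7.39 in p53-/- embryos and 7.43, 7.35 and 7.27 in wt embryos. The difference of double mutants from wt was -0.31 ± 0.12 on this probe set but 0.12 and 0.09 on the other probe sets, so its direction depended on the probe set.

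The abundant chaperones differed by small amounts. Hspa5 (BiP), the Hsp70 of the ER and the usual readout of the response, was at 13.33, 13.30 and 13.27 in double mutants, 13.24, 13.24 and 13.28 in acd embryos, 13.22, 13.18 and 13.12 in p53-/- embryos and 13.16, 13.19 and 13.23 in wt embryos. Its 6 homozygous arrays lay above the 6 others by a gap of 0.01, a separation lost when arrays were centred on their medians and absent from both other probe sets. Its differences were 0.12 ± 0.06 in double mutants against p53-/- embryos and 0.06 ± 0.06 in acd embryos against wt. Hsp90b1 (GRP94), the ER Hsp90, was at 12.40, 12.64 and 12.60 in double mutants, 12.56, 12.54 and 12.66 in acd embryos, 12.42, 12.49 and 12.49 in p53-/- embryos and 12.41, 12.39 and 12.49 in wt embryos. Acd embryos exceeded wt embryos without overlap, by 0.16 ± 0.08, but double mutant replicate 1 was among the lowest arrays. On the second Hsp90b1 probe set the difference was 0.285 and acd and wt embryos overlapped, with acd replicate 3 at 12.29 and wt replicate 3 at 12.38. Calr, a chaperone of glycoproteins, was at 12.40, 12.38 and 12.11 in double mutants, 12.23, 12.19 and 12.10 in acd embryos, 12.03, 12.19 and 11.996 in p53-/- embryos and 12.01, 11.98 and 12.15 in wt embryos. Double mutant replicates 1 and 2 exceeded all other arrays and replicate 3 lay among them, and all 3 of its probe sets were higher in double mutants than in p53-/- embryos, by 0.23 to 0.30.

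The disulfide isomerases and Hsp40 partners held the larger differences. Pdia4 was at 10.35, 10.20 and 10.18 in double mutants, 10.06, 10.03 and 10.12 in acd embryos, 10.13, 10.03 and 10.02 in p53-/- embryos and 9.91, 9.94 and 10.03 in wt embryos. The 3 double mutants exceeded all other arrays, and the difference from wt was 0.28 ± 0.07 (adjusted p = 0.447). Its other probe set, with a mean of 4.06 and so near background, had a difference of -0.16. Pdia6 ran from 11.63 to 12.29, highest in double mutant replicate 1 and lowest in p53-/- replicate 2. Dnajb9 (ERdj4), which restrains Ire1, was at 9.89, 9.43 and 9.04 in double mutants, 9.10, 8.91 and 8.99 in acd embryos, 8.94, 9.01 and 9.0 in p53-/- embryos and 8.97, 8.97 and 8.88 in wt embryos. All double mutants exceeded all p53-/- embryos, but by little in replicate 3. The difference was 0.47 ± 0.16 (adjusted p = 0.463), which became 0.68 ± 0.12 without replicate 3 and 0.25 without replicate 1.

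Sdf2l1, a partner of ER Hsp40 proteins, was at 10.47, 9.63 and 9.67 in double mutants, 9.61, 9.64 and 9.67 in acd embryos, 9.47, 9.37 and 9.45 in p53-/- embryos and 9.34, 9.41 and 9.69 in wt embryos. Replicate 1 was far above the rest, and the difference from p53-/- embryos, 0.49 ± 0.18, was 0.22 without it. Dnajc3 (p58IPK), a co-chaperone of BiP that also inhibits Perk, had the smallest p of the members in acd embryos against wt. It was at 10.32, 10.26 and 10.49 in double mutants, 10.48, 10.42 and 10.43 in acd embryos, 10.23, 10.25 and 10.20 in p53-/- embryos and 9.99, 10.10 and 10.34 in wt embryos. The acd arrays were close together and above all wt arrays, which were spread, and the difference was 0.30 ± 0.09 (adjusted p near 1). All 5 Dnajc3 probe sets were higher in acd embryos, by 0.09 to 0.30. The 5 ER arm genes with the ER stress response element in their window all had differences above 0 in acd embryos against wt, from 0.06 for Hspa5 and 0.08 for Pdia6 through 0.13 for Calr and 0.16 for Hsp90b1 to 0.30 for Dnajc3, none of which passed. Of the 7 other ER arm genes, 3 were also above 0 (Sdf2l1 at 0.16, Pdia4 at 0.11 and Dnajb9 at 0.07), as were 47.2% of all genes, and no link of the element to these differences was tested. Of the degradation factors, Herpud1, part of the export machinery for misfolded proteins, was at 9.24, 8.80 and 8.61 in double mutants and between 8.54 and 8.95 in the other genotypes, so it was high in replicate 1 alone. Edem1, which marks misfolded glycoproteins for removal, was at 7.99, 8.25 and 8.41 in double mutants and between 8.28 and 8.44 elsewhere, so replicates 1 and 2 were low. On its second probe set, of similar brightness, only replicate 2 was low, with differences from the wt mean of 0.05, -0.30 and -0.01 in the 3 double mutants.

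The arms were compared by the counts and medians of their tested members, beside those of all genes. In acd embryos against wt, 12 of 18 Atf4 arm members and 8 of 12 ER arm members had differences above 0 (47.2% of all genes), with medians of 0.03 and 0.07, against -0.01 over all genes. Without the array labelled acd replicate 1 the counts were 13 and 9 (45.3%), with medians of 0.06 and 0.08, and no member passed. In p53-/- embryos against wt, the counts were 10 of 18 and 6 of 12 (48.1%), with medians of 0.00 in each arm. In double mutants against p53-/- embryos, 9 of 18 and 10 of 12 members were above 0 (48.0%), with medians of 0.01 and 0.13, against -0.01. In double mutants against acd embryos, the counts were 7 of 18 and 7 of 12 (47.2%), with medians of -0.03 and 0.08, against -0.01, or 6 and 7 without the array labelled acd replicate 1. In double mutants against wt, the counts were 8 of 18 and 10 of 12 (46.8%), with medians of -0.04 and 0.17, against -0.01. In the interaction they were 7 of 18 and 8 of 12 (49.0%), with medians of -0.05 and 0.07, against -0.01. Without the array labelled acd replicate 1 the interaction counts were the same, with medians of -0.07 and 0.06. The difference between the arms was not tested.

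**Figure D3:**
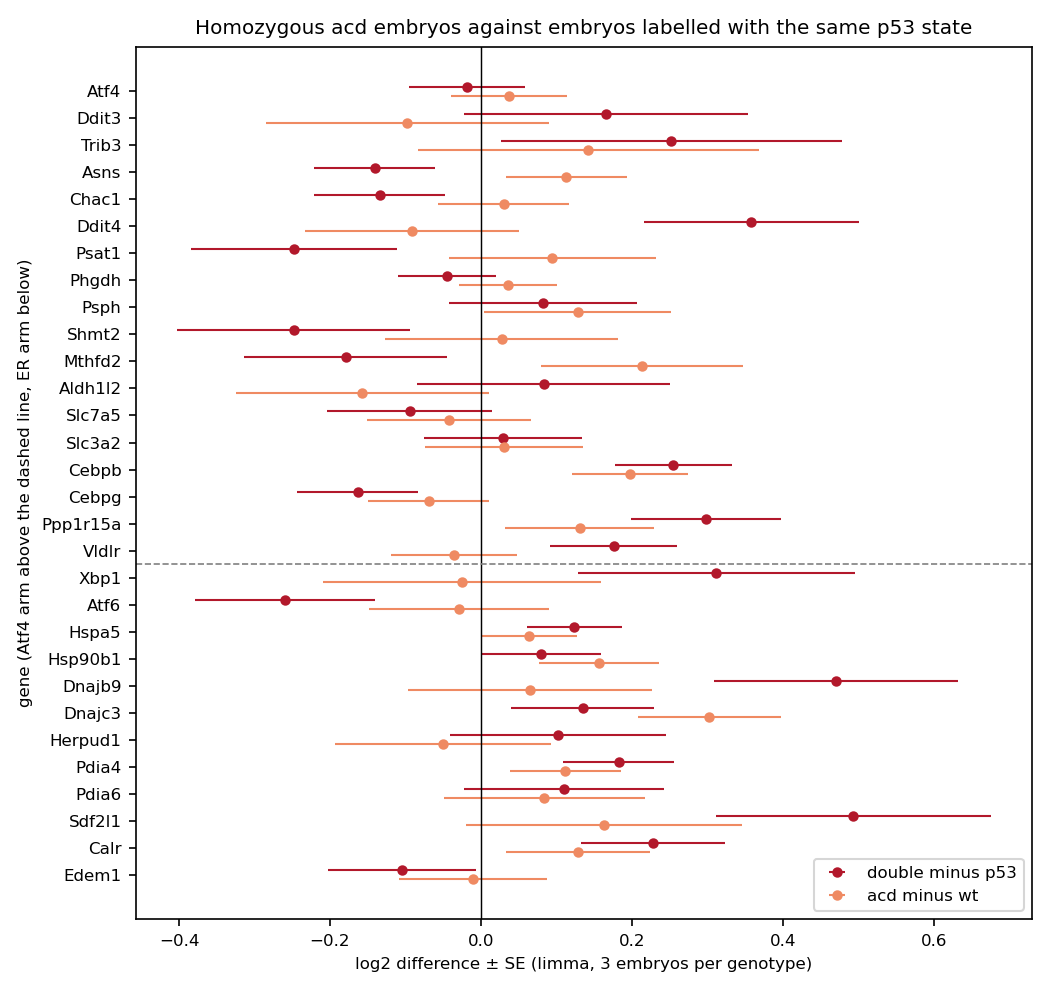
Log2 difference ± SE (horizontal axis; limma, 3 embryos per genotype) of the 30 tested members (rows), for double mutants minus p53-/- embryos (dark) and acd minus wt embryos (light). Of the 12 ER arm members, 10 lie right of 0 in double minus p53-/- and 8 in acd minus wt, while the Atf4 arm lies on both sides.

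Members whose arrays did not overlap between genotypes, on the probe set that stood for the gene, are listed next. For Asns, Cebpb and Hsp90b1, the overlap on other probe sets is given above. Ddit3, Cebpg and Hspa5 overlapped between acd and wt embryos on their second brightest probe sets. There acd embryos reached 5.65 for Ddit3 and 8.14 for Cebpg, where wt embryos started at 5.46 and 8.12. For Hspa5 acd embryos started at 12.30 and wt embryos reached 12.31. Overlap on further probe sets is not given for every gene listed. In acd embryos against wt, Asns, Cebpb, Dnajc3, Hsp90b1, Hspa5 and Pdia4 were apart and higher (7.24% of all genes) and Cebpg and Ddit3 apart and lower (9.85%). Without the array labelled acd replicate 1, Atf4 and Mthfd2 joined the higher ones (1625 of 13500 genes were) and the lower ones were again Cebpg and Ddit3 (2797 genes, 20.7%). In double mutants against p53-/- embryos, Cebpb, Ppp1r15a, Vldlr, Dnajb9, Dnajc3, Hspa5, Pdia4 and Sdf2l1 were apart and higher (3.28%) and no member was apart and lower (5.01%). Cebpb, Dnajc3, Hspa5 and Pdia4 were apart and higher in each of these 2 comparisons. The share of all genes that were so in both was not counted, so nothing is read from this. On the second brightest Dnajc3 probe set both comparisons overlapped. There acd embryos started at 9.45 and wt embryos reached 9.49, and double mutants started at 9.44 and p53-/- embryos reached 9.47. In double mutants against acd embryos, Pdia4 and Vldlr were apart and higher (4.4%) and Asns and Atf6 lower (6.9%). Without the array labelled acd replicate 1, Dnajb9 joined the higher ones and Atf4 and Mthfd2 the lower ones. The shares of all genes were not counted for that setting, so nothing is read from these additions. In double mutants against wt, Cebpb, Ppp1r15a, Vldlr, Dnajb9, Hspa5 and Pdia4 were apart and higher (4.96%) and Asns, Atf6 and Cebpg lower (8.24%).

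A comparison of all 6 homozygous embryos with the 6 others, (double + acd)/2 minus (p53-/- + wt)/2 in the same fit, was chosen after the values were seen. No member passed it (0.0148% of genes did), and 7 of 30 members had an unadjusted p under 0.05 (5.54%), each of them higher in homozygous embryos (2.64%). Differences above 0 were found in 10 of 18 Atf4 arm and 10 of 12 ER arm members (47.1%). The 7 were Cebpb (0.23 ± 0.05), Dnajc3 (0.22 ± 0.07), Ppp1r15a (0.21 ± 0.07), Pdia4 (0.15 ± 0.05), Calr (0.18 ± 0.07), Sdf2l1 (0.33 ± 0.13) and Dnajb9 (0.27 ± 0.11), with an adjusted p of 0.755 for each. Without the array labelled acd replicate 1, Calr and Dnajb9 left this group, with unadjusted limma p of 0.052 and 0.081. No member passed in that fit, where 525 of 13500 genes had an unadjusted p under 0.05. Among the members, Cebpb and Hspa5 alone were apart over 6 against 6 arrays (0.17% of genes were apart and higher, and 0.393% apart and lower). Cebpb passed with array quality weights (adjusted p = 0.0258, 0.637% of genes passed) and without double mutant replicate 3 (adjusted p = 0.0499, 2.08% of genes), where Dnajb9 passed as well (adjusted p = 0.0429).

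The double mutants were described embryo by embryo against the range of the 9 arrays of the other genotypes. In replicate 1, 8 of 18 Atf4 arm members were above that range and 6 below, and 8 of 12 ER arm members were above and 2 below, where 36.4% of all genes were above and 33.6% below. The Atf4 arm members above it were Ddit3, Trib3, Ddit4, Psph, Aldh1l2, Slc3a2, Ppp1r15a and Vldlr, and those below it Asns, Psat1, Phgdh, Shmt2, Mthfd2 and Cebpg. In replicate 2 the Atf4 arm had 4 above and 8 below and the ER arm 4 above and 1 below, where 22.7% and 25.8% of genes were. In replicate 3 the counts were 2 and 1 in each arm, where 8.77% and 12.4% of genes were. The shares of the Atf4 arm in replicate 1 were thus near those of all genes.

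Other genes of these pathways, from 9 lists that hold none of the 32 members, were read in the same way, and none of their genes passed any comparison with all 12 arrays weighted equally. Of 14 tested eIF2 kinases and eIF2 factors, 4 were above 0 in double mutants against p53-/- embryos, with a median of -0.05. Eif2ak2 (PKR), the interferon-induced kinase that senses viral RNA, was at 8.51, 9.17 and 7.05 in double mutants, 7.04, 7.16 and 7.04 in acd embryos, 7.19, 6.94 and 7.05 in p53-/- embryos and 6.98, 6.70 and 7.01 in wt embryos. Replicates 1 and 2 were far above all other arrays, and the difference was 1.18 ± 0.38 (adjusted p = 0.463). Eif2ak4 (GCN2), the kinase for amino acid shortage, was at 7.22, 7.52 and 7.92 in double mutants and between 7.69 and 8.01 elsewhere, low in the same 2 embryos. Eif2s3x, an X-linked eIF2 subunit, followed sex more than genotype, at 12.28 to 12.36 in the 4 embryos without Y-linked transcripts and at 11.63 to 11.95 in the 8 with them.

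The tRNA synthetases, many of which Atf4 can induce, were low in the same double mutant embryos as the synthesis enzymes. Of 12 tested, 11 were below 0 in double mutants against p53-/- embryos, with a median of -0.31 (-0.01 over all genes), and 6 had an unadjusted p under 0.05, each lower (5.67% of genes). In acd embryos against wt the median was -0.01. By embryo, 11, 8 and 2 of the 12 were below the range of the other genotypes in double mutant replicates 1, 2 and 3, where 33.6%, 25.8% and 12.4% of all genes were. Cars, Gars and Mars1, for cysteine, glycine and methionine, had differences of -0.32 ± 0.11, -0.23 ± 0.08 and -0.35 ± 0.12 in double mutants against p53-/- embryos. For Cars the interaction was -0.49 ± 0.15 (adjusted p = 0.879). The other serine and one-carbon enzymes were lower too, in 10 of 12 genes, with a median of -0.19 and 5 at an unadjusted p under 0.05. Mthfd1, the cytosolic folate enzyme, was at 9.13, 9.86 and 10.19 in double mutants and between 10.18 and 10.31 elsewhere, and differed by -0.52 ± 0.19. Mtr, methionine synthase, differed by -0.34 ± 0.14 and Gldc, which cleaves glycine, by -0.24 ± 0.08. Of 21 further Atf4 targets, 11 were above 0, with a median of 0.01. Slc7a1, the carrier of cationic amino acids, differed by -0.25 ± 0.10, Aldh18a1, which starts proline synthesis, by -0.32 ± 0.13 and Eif4ebp1, a repressor of translation, by -0.22 ± 0.12.

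Of the other ER lists, those of folding and of degradation had most genes above 0 in acd embryos against wt and in double mutants against p53-/- embryos, and that of the sensors did not. Of 20 further folding factors, 17 were above 0 in acd embryos against wt (median 0.08) and 13 in double mutants against p53-/- embryos (median 0.10). Of 19 genes of ER degradation and the translocon, 15 and 16 were above 0 (medians 0.04 and 0.10). The shares of all genes were 47.2% and 48.0%. Against acd embryos, the double mutants had 11 of 20 and 13 of 19 above 0 (47.2% of all genes), with medians of 0.01 and 0.06. In double mutant replicate 1, 13 of 20 folding factors were above the range of the other genotypes and 2 below, and 12 of 19 degradation genes above and 2 below (36.4% and 33.6% of all genes). Replicate 2 had 1 folding factor above and 5 below, and 4 degradation genes above and 2 below (22.7% and 25.8%). Replicate 3 had 1 and 1, and 0 and 2 (8.77% and 12.4%). The mean of the folding list relative to wt was 0.26 in replicate 1 and -0.07 in replicate 2, against -0.04 in p53-/- replicate 2. In double mutant replicate 2 the share of folding factors below the range was near that of all genes. Derl2, a channel component of degradation, was at 9.77, 8.99 and 8.97 in double mutants and at 8.80 to 9.12 elsewhere. Creld2, a chaperone-like ER protein, was at 9.95, 9.34 and 9.48 in double mutants and at 9.34 to 9.65 elsewhere. Os9, a lectin of the degradation complex, was at 9.01, 8.83 and 8.62 in double mutants and at 8.52 to 8.66 elsewhere, and Syvn1, its ubiquitin ligase, at 8.73, 8.60 and 8.62 and at 8.42 to 8.63. Canx and Ero1b, a lectin chaperone and an oxidase, differed in acd embryos from wt by 0.15 ± 0.08 and 0.07 ± 0.12. In double mutants Canx was at 12.05, 11.86 and 11.88, below all acd embryos (12.11 to 12.17) and overlapping p53-/- embryos (11.88 to 12.06). Ero1b was at 6.63, 6.40 and 6.13 in double mutants and at 5.96 to 6.32 in p53-/- embryos. Uggt1, the glycoprotein folding sensor, was at 8.50, 8.96 and 9.04 in double mutants and at 8.95 to 9.03 elsewhere. The list of 10 sensors and processing factors had 4 and 5 genes above 0 in acd embryos against wt and in double mutants against p53-/- embryos, with medians of -0.01 and 0.01. In it Creb3 and Bcap31, an ER-bound factor and an ER membrane protein, were high in double mutant replicate 1 alone (9.31 and 11.33, against at most 8.85 and 11.06 elsewhere), and Mbtps1, the protease that cuts Atf6, had a difference of -0.16 in double mutants against p53-/- embryos.

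**Figure D4:**
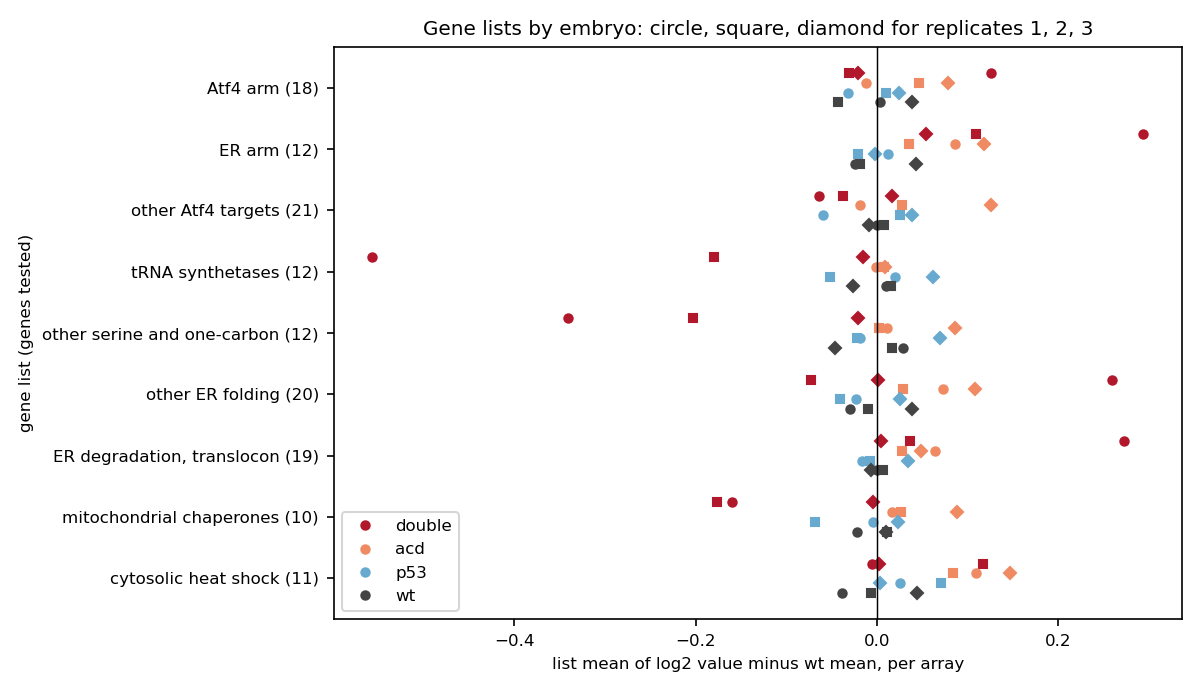
Mean over a list's tested genes of the log2 value minus the wt mean (horizontal axis, log2 units) in each of the 12 embryos, for both arms and 7 other lists (rows, number of genes tested in brackets; colour by genotype, shape by replicate). Double mutant replicate 1 lies furthest right for both arms and the lists of ER folding and ER degradation. It lies furthest left for the tRNA synthetases and serine and one-carbon enzymes, and replicate 3 lies near the other genotypes. The list of ER sensors is not drawn.

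Markers of interferon, macrophages and liver were highest in the same 2 embryos, and those of heart muscle were lowest in the remaining one. Relative to the wt mean, 6 tested of 13 listed interferon-induced genes averaged 2.74, 2.45 and 0.24 in double mutants, 0.12 to 0.31 in acd embryos, 0.05 to 0.13 in p53-/- embryos and -0.03 to 0.04 in wt embryos. The 10 tested of 12 macrophage markers averaged 1.59, 0.99 and -0.22 in double mutants, -0.21 to 0.14 in acd embryos, -0.23 to 0.18 in p53-/- embryos and -0.06 to 0.08 in wt embryos. The 9 tested of 11 markers of visceral endoderm and liver, tissues rich in ER, averaged 1.79, 1.49 and 0.35 in double mutants, 0.31 to 0.45 in acd embryos, -0.17 to 1.25 in p53-/- embryos and -0.10 to 0.13 in wt embryos. In double mutant replicate 1, 6 of 6, 10 of 10 and 8 of 9 of these genes lay above the range of the other genotypes, in replicate 2 the counts were 6, 9 and 5, and in replicate 3 they were 2, 1 and 0. The 7 heart muscle markers averaged -0.07, -0.16 and -0.46 in double mutants, 0.05 to 0.14 in acd embryos, -0.04 to 0.10 in p53-/- embryos and -0.03 to 0.04 in wt embryos, and 2, 5 and 6 of them lay below the range of the other genotypes in replicates 1, 2 and 3. In double mutants, the 8 neuron markers averaged 0.20, 0.65 and -0.11, the 6 somite markers -0.37, -0.11 and 0.09, the 5 neural progenitor markers -0.27, -0.12 and 0.00, and the 5 primitive red cell markers 0.40, 0.16 and -0.32. Their part in the values of the members was not tested. In replicate 2 of the p53-/- embryos the liver markers averaged 1.25. Of the 12 ER arm members, Calr and Dnajb9 there lay above the range of the 5 other p53-/- and wt arrays (27.6% of all genes did). Pdia6 and Edem1 lay below it (20.7%). This is 1 embryo, and no link between the liver markers and the ER arm was tested. The 10 p53 targets averaged -0.18, -0.17 and -0.23 in double mutants and -0.17, 0.36 and 0.45 in acd embryos. They averaged -0.21, -0.19 and -0.16 in p53-/- embryos and 0.03, 0.08 and -0.11 in wt embryos, so wt replicate 3 was the lowest wt array.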

How the data were processed

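RNA of whole embryos was labelled from 250 ng and hybridised to Affymetrix 3' arrays, 1 array per embryo. The deposited log2 values were made by the authors with justRMA (background correction, quantile normalization, probe summary), per the series' design text. Scanner files and scan dates were not used here. RMA makes array distributions near-equal, and background compresses differences of dim probe sets. Precision is set by the number of embryos and by the spread that the fit shares over the genotypes.

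Of 45101 probe sets, 64 were controls. The platform annotation gave 1 symbol for 34945, several for 932 and none here for 9160 others, and 34741 matched RefSeq (GRCm38.p6) by gene identifier with 0 symbols changed. A gene was tested if its probe set exceeded the 40th percentile in 3 or more arrays. The 12 arrays were fitted with 1 mean for each genotype in limma 3.58.1 (R 4.3.3, 8 residual degrees of freedom, empirical Bayes, two-sided, Benjamini-Hochberg over 13500 genes), and the fit was tested on simulated data.

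The members and lists were chosen with earlier results of these data known. Every member is named, and per-array values are given for Atf4, Ddit3, Xbp1, Hspa5 and, in each comparison, up to 3 members of each arm with the smallest p, except where values lie near the array medians, and for others whose groups were apart. In other lists up to 2 genes with the smallest p in the interaction or in double mutants against p53-/- embryos are named. Alternatives tried were a block by replicate number, other filters, probe set rules, normalizations and variance models, array weights, sex as a term, only the arrays compared, and leaving out arrays.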

Additional observations from a re-analysis of the deposited data

How the results depend on the processing

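The 7 comparisons, 6 planned and the 6 against 6 one added after the values were seen, were refitted under up to 23 alternatives. Genes that passed numbered 2 (acd against wt), 0 (p53-/- against wt), 1, 0 and 2 (double mutants against p53-/-, acd and wt), 0 (interaction) and 2 (6 against 6). With the replicate block they numbered 1 in acd against wt and 1 in double mutants against wt. Double mutants against wt also gave 1 without the filter, with median centring, with quantile normalization and with sex as a term, and 0 with only the arrays compared. Sex as a term gave 1 in acd against wt, 1 in p53-/- against wt, 2 in double mutants against p53-/- and 1 in the interaction. Array weights gave 122, 1777 and 1808 for double mutants against p53-/-, acd and wt and 86 in 6 against 6, with 6 and 8 members against acd and wt and 1 (Cebpb) in 6 against 6. Without double mutant replicates 1 and 2 the counts were 28, 31, 26, 25 in the interaction and 18 in 6 against 6, with no member among them, and the lone array left was assumed to vary like the other genotypes. Leaving out each array in turn gave 1 to 3 genes in acd against wt, 0 to 1 in p53-/- against wt, 1 to 1756, 0 to 1876 and 1 to 1646 for double mutants against p53-/-, acd and wt, 0 to 439 in the interaction and 2 to 281 in 6 against 6, each highest count of the last 5 being without double mutant replicate 3. The members ran from 0 to 7, 0 to 7, 0 to 5, 0 to 1 and 0 to 2 in those 5, and were 0 otherwise. Over the 30 tested members and 7 comparisons, up to 61 of 210 differences turned direction under 1 alternative (without double mutant replicates 1 and 2), 30 with sex as a term, 28 without double mutant replicate 1 and 4 without the array labelled acd replicate 1, and none that turned was called. Among the 42 differences with the smallest p (3 for each arm and comparison), 5 turned. With the mean of all probe sets Dnajc3 was at -0.0018 and Pdia4 at -0.074 in p53-/- against wt. Without double mutant replicates 1 and 2, Ddit4 was at -0.0128 in double mutants against p53-/-, and Dnajb9 at -0.0101 and Xbp1 at -0.029 in the interaction. The Atf4 arm's interaction median was 0.06 with sex as a term. The causes were not tested. The labels do not say whether replicate numbers pair the embryos. Over 18 pairs of same-numbered embryos, correlations of deviations from the genotype means ran from -0.23 to 0.39, with 7 over 0.1. Pairs with different numbers were not compared, so these values cannot decide whether the numbers pair the embryos. The replicate block changed no member's call.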

Other observations

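Chaperones outside the ER were read from 2 further lists, of which no gene passed any comparison with all 12 arrays weighted equally. Of 11 tested cytosolic heat shock genes, 10 were above 0 in acd embryos against wt (median 0.10, 47.2% of all genes above 0) and 4 in double mutants against p53-/- embryos (median -0.05). Hspa1b, the stress-induced cytosolic Hsp70, was at 8.33, 8.50 and 7.74 in double mutants, 7.71, 7.75 and 7.79 in acd embryos, 7.45, 7.47 and 6.97 in p53-/- embryos and 7.28, 7.36 and 7.55 in wt embryos. All 6 homozygous embryos exceeded the 6 others, by 0.62 ± 0.13 (SE; adjusted p = 0.755, limma). It passed with array quality weights (adjusted p = 0.021, 0.637% of all genes passed) and without double mutant replicate 3 (adjusted p = 0.00328, 2.08%), and the difference was 0.40 without double mutant replicates 1 and 2 (adjusted p = 0.377). Of its other probe sets, 1 separated the same embryos and 1 did not. Hspa1b and the near-identical Hspa1a may share probes. Hsph1 and Hspa4, Hsp110 proteins of the cytosol, were at 10.98, 11.26 and 11.46 and at 10.90, 11.47 and 11.85 in double mutants, lowest in replicate 1 for each gene.

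Mitochondrial chaperones and proteases were lower in 8 of 10 genes in double mutants against p53-/- embryos, with a median of -0.11, and higher in 8 of 10 in acd embryos against wt, with a median of 0.06. Hspa9, the mitochondrial Hsp70, was at 10.79, 11.04 and 11.28 in double mutants and at 11.16 to 11.45 in the other genotypes. Afg3l2 and Clpx, a protease subunit and an unfoldase, differed by -0.18 ± 0.07 and -0.21 ± 0.11 in double mutants against p53-/- embryos (SE; adjusted p of 0.46 and 0.47). In double mutant replicate 2, 9 of 10 genes of this list lay below the range of the arrays of the other genotypes (25.8% of all genes did), in replicate 1 the count was 6 (33.6%) and in replicate 3 it was 1 (12.4%).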
